A study of Mus musculus with 3 samples.

Results

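Scavenger receptors of classes A and B and their relatives were examined as 8 genes: Cd36, Scarb1, Msr1, Colec12, Marco, Cd5l, Cd163 and Olr1. They were taken by gene symbol, and all 8 were present among the 55536 genes of the deposited gene tables. Macrophages were grown from C57BL/6J mouse bone marrow, and total RNA of their cytosol was sequenced after ribosomal RNA had been depleted. There is 1 group of 3 libraries, biological replicates 1, 2 and 3, labelled with lipid A, the TLR4-binding part of lipopolysaccharide, at 100 ng/ml for 0 minutes. The labels give no genetic change, and list age and sex as not collected. All 3 libraries carry the same donor label and each has its own biosample, so the SDs below may hold technical spread alone. With 1 group there was no treatment to compare, and the results are levels, their order, their spread between libraries and the transcripts that carry them.

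Scavenger receptors are membrane or secreted proteins that bind modified lipoproteins, polyanions, dying cells and microbial surfaces. In macrophages the class A receptors are trimers with a collagen-like stalk, and the class B receptors are hairpin-like proteins anchored in the membrane at both ends, which pass fatty acids and cholesterol across it. A further fold, the cysteine-rich scavenger receptor (SRCR) domain, is found in Cd163, in the secreted protein Cd5l and at the end of the longer form of Msr1. Lipid uptake through these receptors is best known from foam cells, the lipid-laden macrophages of the arterial wall.

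Levels are given in TPM, a measure of transcript abundance that corrects for transcript length and so allows genes to be ordered. A gene was called detected at a TPM of at least 1 in all 3 libraries. Estimated counts over all genes came to 26318761, 41897257 and 56290298 in replicates 1, 2 and 3. Of the 8 genes, 5 were detected (Cd5l, Cd36, Msr1, Scarb1 and Colec12), against 17.0% of all genes and 41.0% of the 22028 protein-coding genes. Marco reached the threshold in 1 library, and Cd163 and Olr1 in 0 libraries. Cd5l and Cd36 together held 82.7 ± 2.58% of the summed TPM of the 8 genes (SD, n = 3, as for every ± below). That sum was 353 TPM in replicate 1, 318 in replicate 2 and 438 in replicate 3. In the order Cd5l, Cd36, Msr1, Scarb1, Colec12, Marco, Cd163, Olr1, the ranges over libraries did not overlap between neighbours except for Marco and Cd163, which could not be ordered on this scale. In bulk RNA a level cannot tell fewer expressing cells from less RNA per cell.

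**Figure D1:**
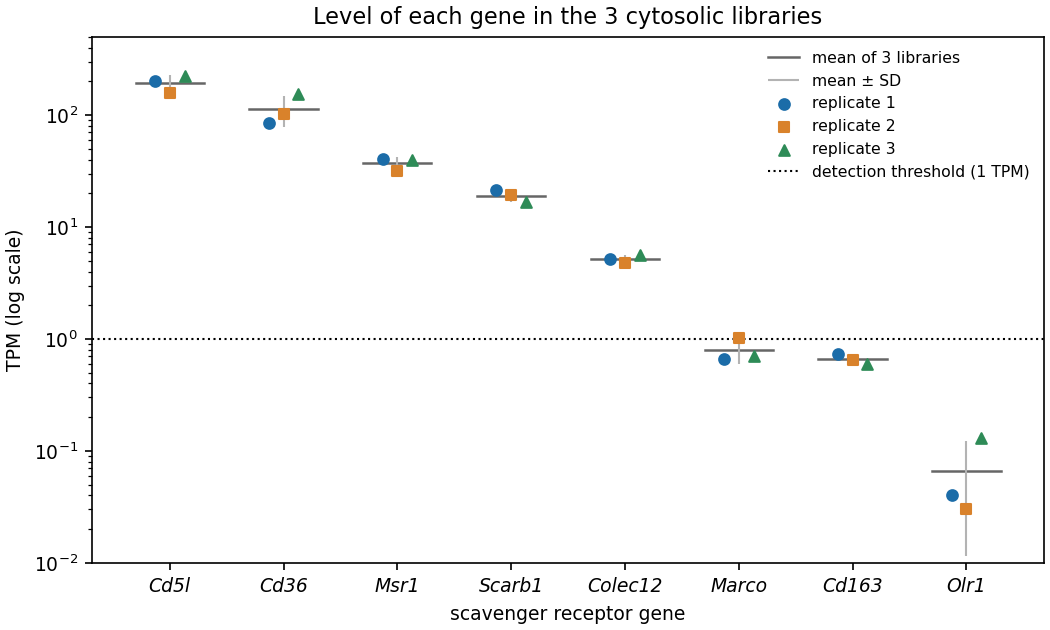
TPM on a log axis for each of the 8 genes; points are the 3 libraries, horizontal bars their means and vertical lines the mean ± SD. Cd5l and Cd36 lie highest, Marco straddles the dotted detection threshold of 1 TPM, and Olr1 lies lowest at 0.03 to 0.13 TPM.

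Cd36, a class B receptor that takes up oxidised low-density lipoprotein and long-chain fatty acids, is on chromosome 5 of mm10 (17781690 to 17888801, minus strand). It had 85.5, 102 and 154 TPM in replicates 1, 2 and 3, a mean of 114 ± 35.5 TPM. Replicate 3 was highest and replicate 1 lowest, 1.79-fold apart. By mean level Cd36 ranked 287 among protein-coding genes, and it was the most abundant of the class A and B genes. Scarb1 encodes SR-BI, the receptor for high-density lipoprotein that takes up its cholesteryl esters, and lies on the same chromosome (125277087 to 125341094, minus strand). It had 21.3, 19.3 and 16.6 TPM, a mean of 19.1 ± 2.34 TPM. In TPM the libraries ran in opposite order for the 2 class B genes, and the ratio of Cd36 to Scarb1 was 4.02, 5.28 and 9.24 in replicates 1, 2 and 3. In CPM, counts scaled to library size alone, Scarb1 was 85.9, 86.9 and 73.0, with replicate 3 again lowest and the other libraries close.

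The annotated coding sequences of the 8 genes were translated and aligned globally in 28 pairs. Cd36 (472 codons) and Scarb1 (509 codons) had the highest share of alignment columns with identical residues, 28.0%. The other 27 pairs ranged from 9.08% to 25.2%. This share is held down in pairs of unequal length. Cd5l and Cd163 had 156 identical residues in 1125 columns, against 146 in 521 for Cd36 and Scarb1. Cd36 and Scarb1 both carry a long uninterrupted hydrophobic stretch near the amino end, of 21 residues in Cd36 and 24 in Scarb1. Class B receptors are known to be anchored in the membrane near this end as well as near the other.

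All 5 full-length Cd36 transcripts in the annotation share the same 12 coding exons and differ in where they start and end. Transcript shares are percentages of the gene's TPM in the RSEM-format transcript tables. Cd36-203, from the distal start, took 50.1, 52.7 and 51.7% in replicates 1, 2 and 3. Transcripts from the proximal start (Cd36-201 and Cd36-206), 53030 bases downstream, took 44.0, 39.9 and 42.4%, and those from a middle start (Cd36-202 and Cd36-204) took 5.83, 7.46 and 5.90%. The shares thus moved by a few percentage points while the gene's TPM differed 1.79-fold. Rescaled over protein-coding genes alone, Cd36 had 326, 463 and 707 TPM in replicates 1, 2 and 3, a wider gap. In TPM, Cd36-203 had 42.9, 53.6 and 79.4, and Cd36-206 had 22.0, 23.0 and 36.6. Both were highest in replicate 3.

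The deposited kallisto-format tables gave the distal start 59.4 ± 2.74% and the proximal start 36.2 ± 3.13%. In these tables the distal total included a 702-base fragment model, Cd36-205, at 12.2, 25.4 and 7.37%, which the RSEM-format tables listed at 0. The order of the 3 starts was the same in both kinds of table. The RefSeq promoter window of Cd36 (GRCm38.p6, chr5:17835847-17836146, minus strand) lies beside the proximal starts, its nearer end 130 bases upstream of the first base of Cd36-206. It is shown because 42.1 ± 2.09% of Cd36 TPM was assigned to transcripts from the proximal start, which lies outside the window. Capitals mark GGGCGG, the GC box, which was searched on both strands without counting overlaps and found as 2 copies on the gene's own strand.
Cd36 promoter: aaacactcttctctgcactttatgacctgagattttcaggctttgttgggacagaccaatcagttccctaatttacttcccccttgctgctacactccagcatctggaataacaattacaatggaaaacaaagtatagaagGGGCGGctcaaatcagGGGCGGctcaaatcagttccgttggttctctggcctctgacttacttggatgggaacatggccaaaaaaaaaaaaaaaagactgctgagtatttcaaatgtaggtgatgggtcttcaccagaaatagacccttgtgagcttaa
At least 1 GGGCGG on either strand was present in 35.7% of the 32851 promoters of the same table, so the match is a description of this window. Of the 8 genes, 5 had an entry in that table.

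Scarb1 is spliced into mRNAs for SR-BI and SR-BII, which differ in the cytoplasmic tail after the last membrane anchor. Scarb1-201, the SR-BI transcript, took 83.2, 84.1 and 81.6% of the gene's TPM, and Scarb1-202, the SR-BII transcript, took 15.7, 12.7 and 14.4%. The ratio of Scarb1-201 to Scarb1-202 was 5.86 ± 0.697, and 6.90 ± 1.28 in the kallisto-format tables. Scarb1-202 leaves out a 129-base exon, so that both tails are encoded by different exons. The end of each coding sequence is shown for that reason (mm10, chromosome 5, minus strand), with the last 30 shared bases in lower case and the part that differs, to the stop codon, in capitals. The capitals cover 125281105 to 125281233 in Scarb1-201 and 125277746 to 125277865 in Scarb1-202, all of them coding exon.
Scarb1-201: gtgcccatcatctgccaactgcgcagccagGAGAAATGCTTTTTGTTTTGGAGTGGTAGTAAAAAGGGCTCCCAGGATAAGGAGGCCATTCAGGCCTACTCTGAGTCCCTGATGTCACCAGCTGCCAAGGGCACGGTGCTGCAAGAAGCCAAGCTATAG
Scarb1-202: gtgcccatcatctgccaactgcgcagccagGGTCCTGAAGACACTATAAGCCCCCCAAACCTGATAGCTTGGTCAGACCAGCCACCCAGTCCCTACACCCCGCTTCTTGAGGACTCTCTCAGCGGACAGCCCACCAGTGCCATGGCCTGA

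Among class A genes, Msr1 was the most abundant. It encodes the macrophage scavenger receptor SR-A, which binds acetylated and oxidised lipoproteins and bacterial surface molecules including lipid A, and lies on chromosome 8 (39581685 to 39642673, minus strand). It had 40.3, 31.9 and 39.3 TPM in replicates 1, 2 and 3, a mean of 37.2 ± 4.61 TPM. Replicate 2 was lowest, as it was for Cd5l. Colec12, a membrane collectin with a sugar-binding end that is known from endothelium and placenta, lies on chromosome 18 (9707595 to 9882644, plus strand) and had 5.16, 4.78 and 5.61 TPM, a mean of 5.18 ± 0.415 TPM. In CPM it was 33.1, 35.8 and 40.3, so that replicate 3 was highest on both scales while the lowest library differed. Marco, which binds bacteria and inhaled particles and is typical of alveolar and splenic marginal zone macrophages, lies on chromosome 1 (120474538 to 120505024, minus strand) and had 0.66, 1.01 and 0.70 TPM. These values rest on 53, 146 and 132 counts. Msr1 was 61.1, 31.5 and 56.1 times as abundant as Marco.

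The collagen-like stalk that defines class A showed in the coding sequences. The longest unbroken run of Gly-X-Y triplets had 81 triplets in Marco, 49 in Colec12 and 25 in Msr1, against at most 3 in any of the other 5 genes. The class B genes of the group, Cd36 and Scarb1, summed to 107, 121 and 170 TPM, against 46.1, 37.7 and 45.6 TPM for the class A genes Msr1, Colec12 and Marco. The ratio of these sums was 2.32, 3.21 and 3.73, a mean of 3.09 ± 0.716. Most of each sum was 1 gene, and the ratio of Cd36 to Msr1 was 2.12, 3.19 and 3.91. Both ratios were above 1 in every library and lowest in replicate 1.

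Msr1 makes a long form that ends in an SRCR domain (type I, Msr1-201, 458 codons) and a shorter form without it (type II, Msr1-202, 354 codons). Msr1-202 took 61.5, 61.9 and 68.5% of the gene's TPM, and Msr1-201 took 34.3, 35.0 and 27.3%. The short form was thus ahead in every library, by 1.79, 1.77 and 2.51 times. In the kallisto-format tables the same ratio was 1.10, 0.923 and 1.34, so that the order of the forms turned round in replicate 2 and rested on the quantification. The annotated models differ in completeness, with 0 bases before the coding start and 47 after the stop codon in Msr1-201, against 53 and 2518 in Msr1-202; the part of this in the ratio was not tested. The coding sequences are shown at the point where they part (mm10, chromosome 8, minus strand). The 54 shared bases, which hold the end of the collagen-like stalk, are in lower case. In capitals are the first 90 bases found in Msr1-201 alone (39589389 to 39589478), which run on into the SRCR domain. For Msr1-202 the capitals are the last 11 bases of the coding sequence, stop codon included (39605972 to 39605982). Both stretches lie in coding exons.
Msr1-201: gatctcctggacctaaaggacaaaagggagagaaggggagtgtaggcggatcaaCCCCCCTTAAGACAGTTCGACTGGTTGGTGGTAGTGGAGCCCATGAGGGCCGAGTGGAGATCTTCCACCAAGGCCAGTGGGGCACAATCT
Msr1-202: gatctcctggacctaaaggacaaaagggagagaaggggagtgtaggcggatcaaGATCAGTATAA

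Most Colec12 TPM was assigned to a transcript that the annotation does not class as protein-coding. Colec12-201, typed as a target of nonsense-mediated decay, took 90.9, 88.5 and 88.1% in replicates 1, 2 and 3. It holds a 74-base exon (9854532 to 9854605) that the protein-coding Colec12-204 lacks, and its open reading frame of 461 codons ends earlier than the 742 codons of Colec12-204. Colec12-204 took 8.14, 10.9 and 10.5%, and 13.0 ± 2.53% in the kallisto-format tables. The 2 models also differ in length, with 3447 bases in Colec12-201 and 8024 in Colec12-204, of which 5637 follow the stop codon. How far the shares come from the ends of the models and how far from the 74-base exon was not tested. Of the Marco TPM, all was assigned to Marco-201 in each library.

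**Figure D2:**
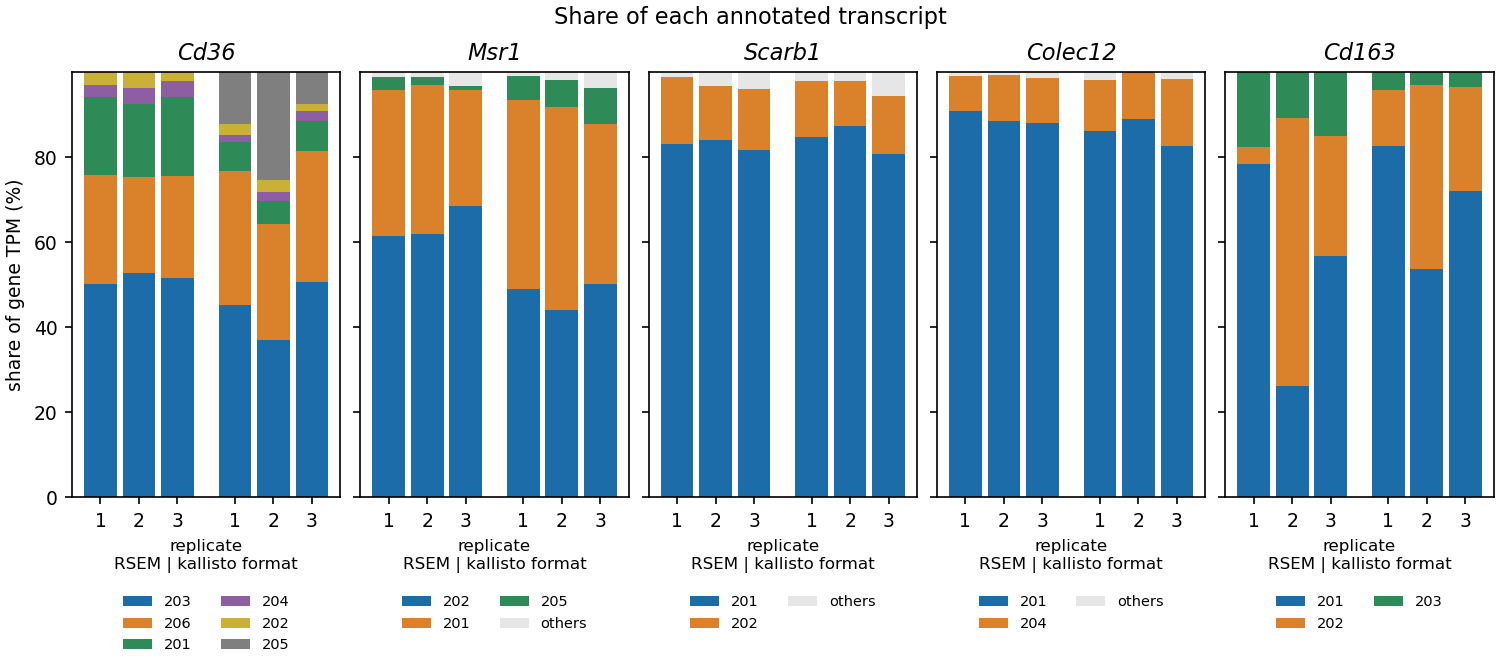
Share of each gene's TPM (percent, stacked to 100) taken by each annotated transcript in replicates 1, 2 and 3, from the RSEM-format tables (left bars of a panel) and the kallisto-format tables (right bars). Scarb1-201 lies between 80.8 and 87.4% and Colec12-201 between 82.6 and 90.9% in all bars, Msr1-202 (blue) was smaller in the kallisto-format tables, and Cd163 differed between libraries.

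The most abundant of the 8 genes was Cd5l. It encodes a secreted protein of tissue macrophages, also called AIM, that supports macrophage survival and acts on lipid metabolism, and it belongs here through its SRCR domains rather than as a membrane receptor. The gene is on chromosome 3 (87357881 to 87371073, plus strand), with a single annotated transcript. It had 200, 158 and 222 TPM in replicates 1, 2 and 3, a mean of 193 ± 32.2 TPM, and ranked 152 among protein-coding genes. Cd5l exceeded Cd36 in every library, by 2.33, 1.56 and 1.45 times. Cd163, the macrophage receptor for complexes of haptoglobin and haemoglobin, was near the other end. It is on chromosome 6 (124304656 to 124330527, plus strand) and had 0.73, 0.65 and 0.60 TPM, a mean of 0.660 ± 0.0656 TPM. Cysteine codons made up 7.39% of Cd5l and 6.60% of Cd163, against 1.13 to 2.20% in the coding sequences of the other 6. These 6 genes are not all without the domain. Msr1-201, for example, ends in an SRCR domain after a long stalk and is at 2.18%, and Msr1-202, without the domain, is at 1.13%.

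In counts, Cd163 differed between the deposited tables more than the other 7 genes did. The gene tables gave it 135, 221 and 263 counts in replicates 1, 2 and 3, and the kallisto-format tables gave 479, 770 and 977. The ratio, 3.60 over the 3 libraries, was higher than for 99.7% of the 11622 genes compared, whose median was 1.11 and whose range from the 5th to the 95th percentile was 1.06 to 1.36. Of the other 7 genes, 6 had ratios from 1.08 to 1.18, and Olr1, on far fewer counts, had 1.68. In TPM the level of every gene depended on the format. Mean TPM of the other 7 genes was lower in kallisto format than in RSEM format, as in Cd5l (80.4 against 193) and Cd36 (57.2 against 114). That of Cd163 was higher, at 0.889 against 0.660. In kallisto-format TPM, Cd163 was above Marco in each library and the ranges did not overlap, with Marco at 0.280, 0.497 and 0.433 times Cd163. The cause of these gaps between formats was not tested. The split of Cd163 between transcripts was also unstable: Cd163-201 took 78.4, 26.2 and 56.7% and Cd163-202, with 114 more coding bases, took 4.05, 63.1 and 28.3%. Cd163-203, a retained-intron model, took 14.4 ± 3.43%. In the kallisto-format tables Cd163-201 took 82.7, 53.8 and 72.0% and Cd163-202 took 13.1, 43.2 and 24.4%, so that Cd163-201 led in every library, and Cd163-203 took 3.59 ± 0.567%.

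Olr1, or LOX-1, a class E lectin-like receptor for oxidised lipoprotein best known from endothelium, is on chromosome 6 (129485244 to 129507165, minus strand). It was at the edge of measurement, with 6, 8 and 9 counts (95% exact Poisson intervals 2.20 to 13.1, 3.45 to 15.8 and 4.12 to 17.1, for counting error only). These correspond to 0.04, 0.03 and 0.13 TPM as maximum likelihood estimates, and to 0.46, 0.28 and 0.30 TPM as posterior means, where replicate 1 was highest. The higher maximum likelihood TPM of replicate 3 came with a shorter effective length, 626 bases against 3341 and 2829 in replicates 1 and 2, because a 350-base model, Olr1-202, was given 84.6% of the gene's TPM there. In CPM Olr1 was 0.228, 0.191 and 0.160, so replicate 3 was not highest on that scale.

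The spread between libraries was measured as the SD of log2 CPM after TMM scaling, for 12413 genes past a filter on low counts. The median SD was 0.119. Cd36 stood at 0.538, higher than 94.0% of these genes, with log2 CPM of 8.53, 9.03 and 9.61 in replicates 1, 2 and 3. Replicate 3 exceeded replicate 1 by 1.08 on the log2 scale. Marco stood at 0.424, on few counts, with replicate 2 highest. Cd5l had an SD of 0.251, Msr1 0.203 and Colec12 0.190, all above the median. Scarb1, at 0.111, and Cd163, at 0.0732, were below it. Olr1 did not pass the filter. On this scale replicate 3, the deepest library, was highest for Cd5l, Cd36, Msr1 and Colec12 and lowest for Scarb1 and Cd163. Without replicate 3 the SD was 0.348 for Cd36, 0.0645 for Cd5l, 0.0664 for Msr1, 0.0558 for Scarb1 and 0.125 for Colec12. Without replicate 2 it was 0.209 for Marco and 0.0367 for Cd163.

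**Figure D3:**
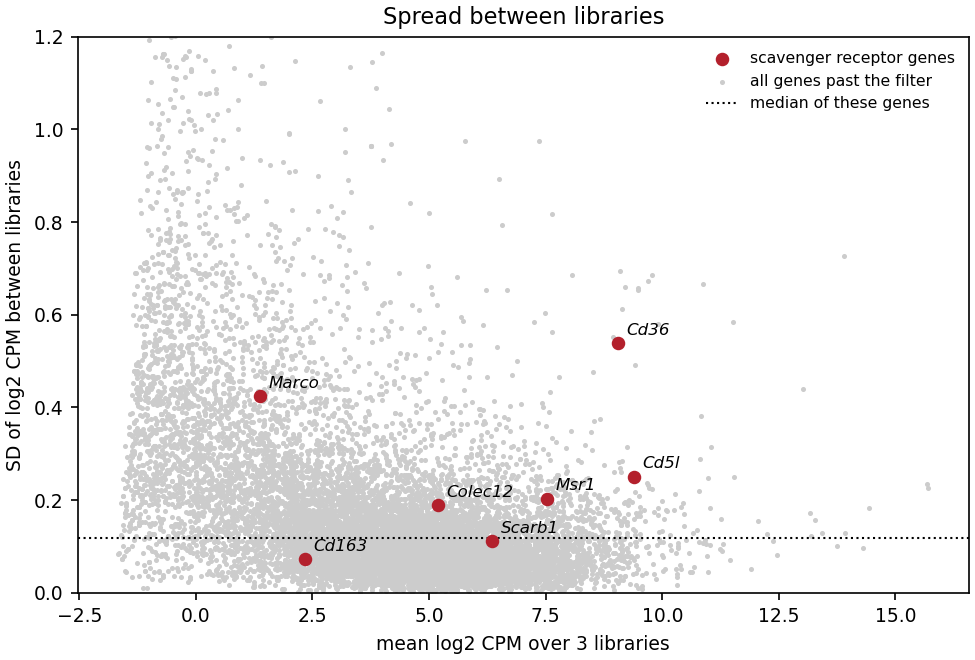
SD of log2 CPM between the 3 libraries against mean log2 CPM, with 1 grey point per gene past the filter, red points for the 7 scavenger receptor genes among them and a dotted line at the median SD of 0.119. Cd36 and Marco lie well above the line; 134 grey genes lie above the top of the plot at an SD of 1.2.

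Together with 16 other scavenger receptor genes of all classes, the 8 genes made up 19.8, 20.8 and 24.2% of the summed TPM. Of the other 16, 10 were detected, against 41.0% of protein-coding genes and 17.0% of all genes. The highest were Cd68, the lysosomal class D protein macrosialin, at 663 ± 66.5 TPM, the lipoprotein and efferocytosis receptor Lrp1 at 161 ± 25.2 TPM, and Stab1, a class H receptor for modified proteins, at 157 ± 13.1 TPM. Scarb2, the lysosomal class B relative of Cd36, had 38.1 ± 5.91 TPM, close to Msr1. Cd5l was second and Cd36 sixth of the 24 by mean level. From Cd5l down to Mrc1 the range over libraries of each gene overlapped that of at least 1 other, with Clec7a alone spanning 88.3 to 159 TPM, so the order of Cd5l, Lrp1, Stab1, Clec7a, Cd36 and Mrc1 is not fully resolved. Scara3, Scara5, Megf10 and Lrp2 were listed at 0 TPM.

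**Figure D4:**
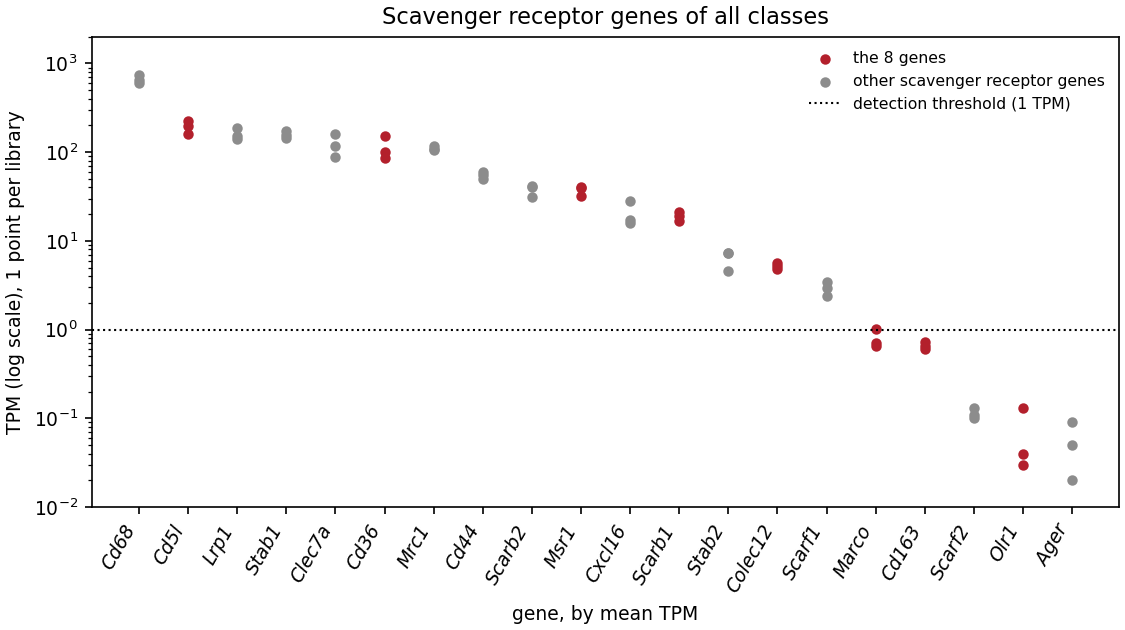
TPM on a log axis of scavenger receptor genes, ordered by mean, with 1 point per library; red marks the 8 genes described and grey the others, and 4 genes listed at 0 TPM are not drawn. Cd68 lies highest at 663 TPM on average, and the 8 genes run from Cd5l near the top to Olr1 near the bottom.

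Most listed genes that act with these receptors were detected, but the lists were chosen with earlier results of these data known. Over all protein-coding genes the share detected was 41.0%, and over all genes 17.0%. Of 13 transcription factors known to act on genes of the group, 13 were detected, led by Maf (98.7 ± 5.30 TPM), Nfe2l2, which encodes the oxidative stress factor NRF2 (77.0 ± 15.8 TPM), and Spi1, which encodes PU.1 (61.5 ± 9.65 TPM). Of 14 genes that handle lipid after uptake, 14 were detected, led by Apoe, the main apolipoprotein secreted by macrophages (1900 ± 282 TPM), the fatty acid carrier Fabp5 (997 ± 186 TPM) and the lipid droplet coat gene Plin2 (325 ± 40.1 TPM). Of 14 known binding or signalling partners, 12 were detected, led by the immune adaptor Fcer1g (527 ± 78.1 TPM) and the integrin chains Itgb1 (107 ± 8.59 TPM) and Itgb2 (103 ± 4.13 TPM). The 2 partners below the threshold were Pdzk1, the adaptor that holds SR-BI in liver, with at most 0.01 TPM, and Hp, the haptoglobin gene, with 0.17 to 0.28 TPM.

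The macrophage label was checked against markers. All 7 macrophage markers listed were detected, with Lyz2 (4792 ± 1020 TPM) and Csf1r (254 ± 32.6 TPM) among them, against 41.0% of protein-coding genes. Several of the receptors are also known from other cells, so markers of those were read as well. None of 4 adipocyte, 6 platelet or 5 fibroblast markers was detected, and 3 of the adipocyte markers had 0 counts. Of 7 endothelial markers, 2 were detected, Vwf at 10.9, 13.5 and 9.58 TPM and Kdr at 3.46, 2.93 and 2.00 TPM. Pecam1 had 0.31, 0.20 and 0.18 TPM, the endothelial genes Cdh5, Tie1 and Emcn were at 0.16 TPM or below in each library, and Tek had 0 counts. The 7 endothelial markers summed to 14.8, 16.9 and 11.9 TPM, most of it Vwf, and the sum was highest in replicate 2, as Vwf was. Any endothelial part in the levels of Colec12 and Olr1 was not tested. Of 6 markers of tissue-resident macrophages, 1 was detected, Spic at 2.03 ± 0.641 TPM, while Clec4f and Car4 had 0 counts.

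For each detected gene the protein-coding genes nearest in level over the 3 libraries were found by the root mean square difference of log2(TPM + 1). Calr and Trf were nearest to Cd5l (differences of 0.122 and 0.127), and Tram1 and Sypl to Msr1 (0.0324 and 0.0460). Mrps15 and Hist1h4n were nearest to Scarb1 (0.0182 and 0.0178), and Rnmt and Insr to Colec12 (0.0218 and 0.0393). The genes nearest to Cd36, Abca1 and Itgb1, were farther off, at 0.239 and 0.284. The measure is a likeness of level over 3 libraries and says nothing further about the genes.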

How the data were processed

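Per the file headers, each of the 3 libraries has a gene table and a transcript table in RSEM format and a transcript table in kallisto format; per the labels and deposited notes, values refer to mm10 and GENCODE M21. The version of each tool is not given in the sources used here. The authors deposited expected counts (estimated reads per gene or transcript), which summed over genes to 26318761, 41897257 and 56290298 in replicates 1, 2 and 3, so that the floor of 3 counts equals 0.114, 0.0716 and 0.0533 CPM. The authors also deposited TPM, FPKM and, as a percent per the file headers, the isoform share of each transcript. Shares printed here were recomputed from transcript TPM. Protein-coding genes held 26.2, 22.0 and 21.7% of TPM in replicates 1, 2 and 3 (23.3 ± 2.55%), so TPM is not on quite the same footing in each library.

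The members and gene lists were chosen with earlier results of these data known. All 8 members are named; of each of the 4 gene lists the 3 highest by mean TPM are named, and any other list or marker gene named was chosen after its values were seen. Expected counts were rounded and scaled by TMM in edgeR 4.0.16 (R 4.3.3; intercept only, prior count 2), tested on simulated data. Gene-table counts of all 8 members were whole within 0.01 in every library, against 68.6% of the 11628 genes with at least 100 counts. With 3 libraries in 1 group no test between groups was made; an exact permutation test of 3 values against 3 cannot give a p below 0.1. Protein sequences were not available here as a table, so coding sequences of GENCODE M21 were translated and aligned with Biopython 1.88 (BLOSUM62). Alternatives used other deposited estimates, thresholds, scalings (DESeq2 1.42.0 size factors) and each library left out.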

Additional observations from a re-analysis of the deposited data

How the results depend on the processing

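Of 205 recomputed values, 185 stayed within 1 SD of the value reported (for counts and SDs of log2 CPM, within 1.5 times). Of the 205, 120 came from leaving 1 library out, and 7 of these fell outside, all of them SDs of log2 CPM. With 3 libraries, leaving 1 out cannot move a mean by 1 SD. For levels, ratios and shares that check could therefore not fail, and the tally is no measure of stability there. Other comparisons in the tally could not fail either. FPKM rescaled to the same total is TPM by construction, and ratios within a library are the same in FPKM and TPM. Cd5l has a single annotated transcript, which fixes its shares. Annotated transcripts of Cd36 and Marco are all protein-coding, which fixes their protein-coding share. An order turned in kallisto-format tables for the means of Marco and Cd163. In replicate 2 it also turned between the Msr1 forms and between Cd163-201 and Cd163-202. Of the 8 genes, 5 were detected with posterior mean TPM and without each library, and 4 at a threshold of 5 TPM. At a threshold of 0.5 TPM, with FPKM and with TPM or kallisto-format TPM rescaled over protein-coding genes, 7 were detected. The share of all genes detected at these settings was not computed, so these counts cannot be set against a background. In kallisto-format TPM over protein-coding genes Msr1 was 184 (160 in the gene tables) and Cd163 8.58 (2.84). Posterior mean TPM gave Olr1 0.347 (0.0667 as maximum likelihood), and without replicate 3 it was 0.035 TPM. Kallisto-format transcript shares were 44.4% for Cd36-203, 47.8% for Msr1-202, 84.3% for Scarb1-201 and 85.9% for Colec12-201. For protein-coding transcripts they were 91.9% in Msr1 (96.6% in RSEM format), 13.0% in Colec12 and 96.4% in Cd163 (85.6% in RSEM format). Posterior mean shares were 80.6% for Scarb1-201, 87.0% for Colec12-201 and 86.2% for Marco-201 (100% as maximum likelihood). Causes were not tested. With each library left out in turn, the SD of log2 CPM ranged from 0.348 to 0.751 for Cd36, 0.0645 to 0.332 for Cd5l, 0.0664 to 0.274 for Msr1, 0.0558 to 0.157 for Scarb1, 0.125 to 0.259 for Colec12, 0.209 to 0.591 for Marco and 0.0367 to 0.102 for Cd163. Transcript shares of Olr1 rest on 23 counts in all and were left out of this comparison. Depth limits Olr1 and, less so, Marco and Cd163. No paired analysis was possible because there is 1 group.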
